A study of Mus musculus with 64 samples.

Results

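The genes described are 37 cell cycle and DNA replication genes among the 53008 gene names of a mouse liver RNA-seq count table. The genes were chosen by name, with earlier results of these data known. They were sorted by role into 24 genes of mitosis, 9 genes of DNA replication, 3 cyclins of the G1 phase or the G1/S step, and the cyclin-dependent kinase inhibitor Cdkn1a. The question put to them was how the replication genes and the mitosis genes varied over 4 groups of livers, and whether the 2 sets moved alike. All 37 were in the table, and 36 had enough counts to be tested. Bub1 did not pass the filter on low counts.

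Livers came from wild-type (WT) mice and from HuMgat2 mice after 16 weeks on a chow diet or a high-fat diet (HFD). HuMgat2 mice are humanized for Mgat2 (Mogat2) and express human MOGAT2, an enzyme that joins a fatty acid to monoacylglycerol to form diacylglycerol. The groups were WT on chow, WT on HFD, HuMgat2 on chow and HuMgat2 on HFD, with 4 libraries each. Sex, age, strain background and the way the human gene is controlled are not given in the sources used here. Nor do the labels say that each library is a separate mouse, so p-values measure the spread between libraries. The table has no row for human MOGAT2.

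A cell that divides first passes from G1 into S phase, when the ring-shaped MCM helicase unwinds DNA and the sliding clamp Pcna holds the polymerases to it. Mitosis follows, driven by the kinase Cdk1 with cyclins A and B, and ends when the anaphase-promoting complex, switched on by Cdc20, destroys those cyclins. Hepatocytes of the adult liver rarely divide, and many of them carry more than one genome copy, because some cells copy their DNA and do not complete division. Cdkn1a (p21) binds cyclin-dependent kinases and holds cells back, and it is a classic target of p53.

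Total counts ran from 12422647 to 25812129 per library. WT HFD library 4 stood apart: it had the fewest counts, and the share of reads on albumin (Alb), the main secreted protein of hepatocytes, was 0.85%, where the remaining 15 libraries lay between 3.259% and 6.018%. Hepatocyte markers were present in every library, with sums over 9 genes of 38702 CPM in that library and 67509 to 96271 CPM in the rest. In the same library the sum over 15 macrophage markers was 1300 CPM (302 to 481 in the other WT HFD livers), that over 12 granulocyte markers 72 CPM (1.01 to 2.96), and that over 9 markers of T and NK cells 21.3 CPM (4.25 to 7.8). Many calls, directions and counts that change when it is left out are also given without it, but not every change of direction. For example, the WT diet change of Kif11 went from log2 0.25 to -0.14 and that of Kif23 from 0.4 to -0.22. All levels are in CPM, counts relative to the library size as scaled by TMM. Where 4 values follow one another, they are in order of library number: 5 to 8 for WT on chow, 1 to 4 for WT on HFD, 13 to 16 for HuMgat2 on chow and 9 to 12 for HuMgat2 on HFD. A gene is said to have risen or fallen when its adjusted p in the edgeR quasi-likelihood test, with Benjamini-Hochberg adjustment over 17318 genes, was below 0.05. In bulk liver, more dividing cells and more RNA per dividing cell cannot be told apart.

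The genes were scarce in these livers. Their mean levels over the 16 libraries ran from 0.278 to 19.3 CPM, and 16 of 37 were below 1 CPM, against a median of 6.79 CPM over all tested genes. A typical value rested on 26 counts, the median over all members and libraries. Per kilobase of exon, the median level of the mitosis genes was 0.116 CPM per kb in WT on chow, 0.195 in WT on HFD, 0.14 in HuMgat2 on chow and 0.306 in HuMgat2 on HFD. The replication genes were more abundant on the same scale, with medians of 0.73, 0.994, 0.883 and 1.58 CPM per kb. Pcna was the most abundant replication gene per length in all 4 groups, at 6.11 to 7.64 CPM per kb.

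Summed over the 24 mitosis genes, the level was 14.3, 18, 14.7 and 19.3 CPM in WT on chow and 17.5, 20.9, 21.3 and 59.7 in WT on HFD. It was 20.7, 17.4, 25.1 and 15.3 CPM in HuMgat2 on chow and 34.3, 52.7, 54.7 and 51.5 in HuMgat2 on HFD. All 4 HuMgat2 HFD livers were above all chow livers of both genotypes, and WT HFD library 4 was higher still while the other 3 WT HFD livers were at 17.5 to 21.3 CPM. The sum over the 9 replication genes was 48.8, 42.3, 48.3 and 46.2 CPM in WT on chow and 46.6, 45.3, 50.2 and 54.3 in WT on HFD, and the HuMgat2 sums were 46.6, 56.4, 52 and 53 on chow and 56.9, 67.2, 72.3 and 91.9 on HFD. The replication sums of the HuMgat2 HFD livers were also above all others, by less. Pcna and Mcm7 had the highest levels of the 9 in every group, and neither rose on HFD in either genotype. WT HFD library 4 was the highest WT HFD liver for 22 of the 24 mitosis genes and 6 of the 9 replication genes. In HuMgat2 on HFD, library 9 was the lowest for 18 of 24 mitosis genes and 7 of 9 replication genes, and library 12 was the highest for 8 of 9 replication genes, while library 11 was the highest for 13 of 24 mitosis genes.

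**Figure D1:**
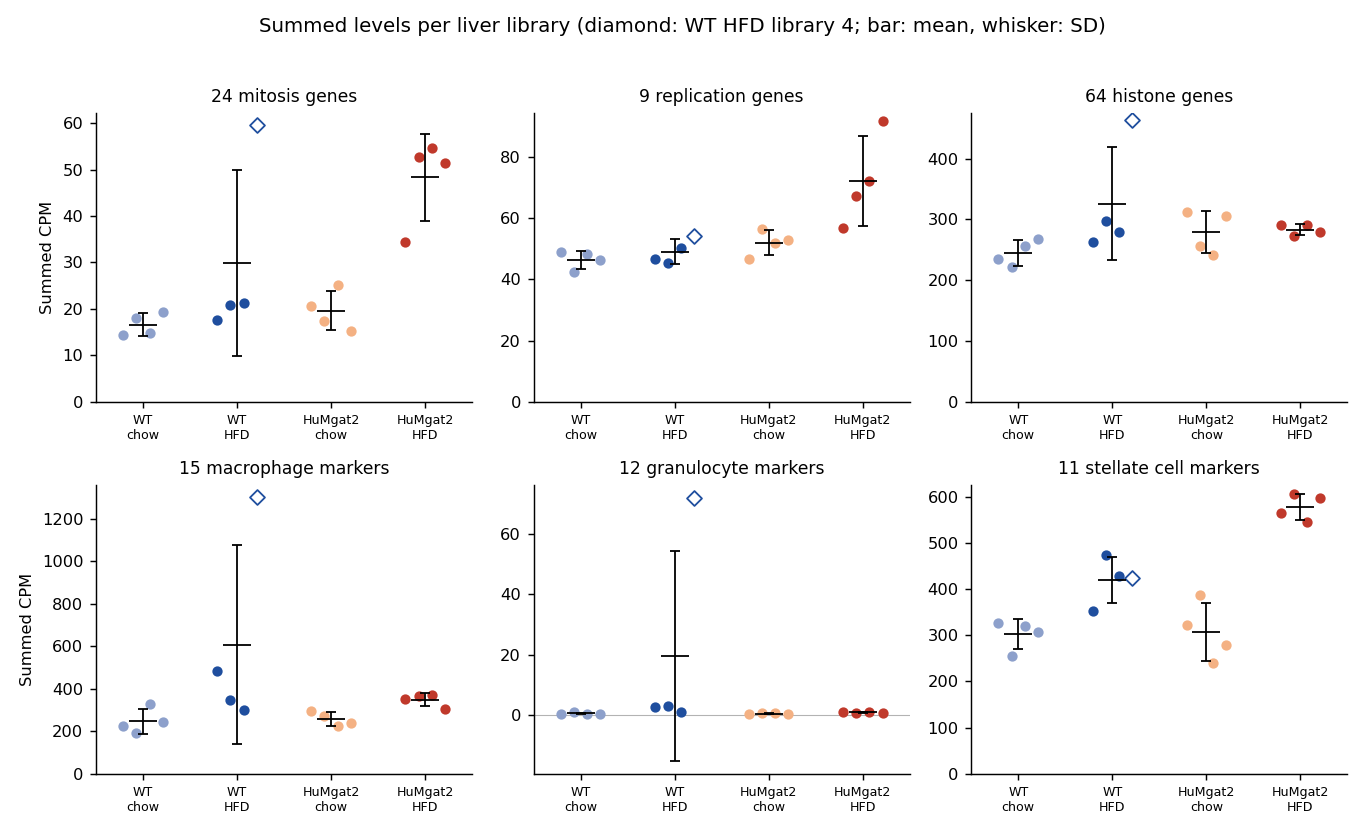
Summed CPM per library for the mitosis genes, the replication genes, histone genes and markers of 3 other cell types; points are libraries, the open diamond is WT HFD library 4, bars are group means and whiskers SD (n = 4). The 4 HuMgat2 HFD livers sum to 34.3 to 54.7 CPM over the mitosis genes, above all 8 chow livers, and the diamond is at 59.7 CPM with the highest macrophage and granulocyte sums.

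Promoter sequences are shown for 4 of the 6 members with the smallest adjusted p for the diet in HuMgat2 mice among those with a sequence, because the mitosis and replication genes differed in the short motifs near their starts. The motifs searched are known from cell cycle promoters and were read on both strands: CHR (TTTGAA), the CCAAT box (CCAAT), and an E2F site taken as any of TTTCCCGC, TTTCGCGC, TTTGGCGC or TTTGCCGC. Each window holds 300 bases, 250 before the RefSeq transcript start and 50 after it, in the GRCm38.p6 build, which is not the build of the count table. Windows were found for 30 of the 37 genes (33 windows). Those printed are Cdc20 (chr4:118437294-118437593, minus strand), Plk1 (chr7:122159185-122159484, plus strand), Ccnb1 (chr13:100786437-100786736, minus strand) and Mcm3 (chr1:20820263-20820562, minus strand), each 5′ to 3′ along its gene. Capitals mark the motif matches.
Cdc20: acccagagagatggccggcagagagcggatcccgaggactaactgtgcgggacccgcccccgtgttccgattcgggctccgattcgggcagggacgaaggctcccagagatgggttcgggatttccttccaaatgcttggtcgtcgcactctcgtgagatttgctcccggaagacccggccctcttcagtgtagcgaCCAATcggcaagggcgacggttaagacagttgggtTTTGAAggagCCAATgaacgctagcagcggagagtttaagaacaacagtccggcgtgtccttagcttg
Plk1: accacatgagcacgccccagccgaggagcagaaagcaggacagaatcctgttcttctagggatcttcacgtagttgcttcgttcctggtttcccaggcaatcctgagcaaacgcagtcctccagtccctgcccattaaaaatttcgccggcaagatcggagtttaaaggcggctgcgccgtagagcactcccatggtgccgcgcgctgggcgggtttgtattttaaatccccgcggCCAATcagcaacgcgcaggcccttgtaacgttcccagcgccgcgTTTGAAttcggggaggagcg
Ccnb1: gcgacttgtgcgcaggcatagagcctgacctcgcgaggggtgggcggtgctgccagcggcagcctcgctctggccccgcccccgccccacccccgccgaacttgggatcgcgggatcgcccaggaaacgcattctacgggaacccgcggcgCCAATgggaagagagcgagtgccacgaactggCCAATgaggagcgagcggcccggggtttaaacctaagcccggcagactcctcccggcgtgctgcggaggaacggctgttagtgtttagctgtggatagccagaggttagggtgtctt
Mcm3: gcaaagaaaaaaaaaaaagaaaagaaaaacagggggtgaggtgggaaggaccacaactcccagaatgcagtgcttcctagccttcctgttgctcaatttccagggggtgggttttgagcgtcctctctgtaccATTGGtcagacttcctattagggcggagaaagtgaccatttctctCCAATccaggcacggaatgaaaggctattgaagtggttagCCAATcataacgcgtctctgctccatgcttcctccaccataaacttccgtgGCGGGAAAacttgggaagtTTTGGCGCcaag
Cdc20 and Plk1 each hold a CHR within 50 bases of the start together with a CCAAT box, and Cdc20 has a further CCAAT box. Ccnb1 holds 2 CCAAT boxes and no CHR match in this window, and Mcm3 holds 3 CCAAT boxes with 2 E2F matches after the start, and its capitals that do not spell a motif are matches on the other strand. The windows of Cdkn1a, which has 2 starts, and of Nusap1 hold no match to any of these motifs.

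Over all windows of the mitosis genes, 16 of 21 (76.2%) held a CHR, against 1 of 9 (11.1%) of the replication genes and 17.9% of 32851 windows of all genes. The order was reversed for E2F, with 1 of 21 (4.76%) of the mitosis windows, 4 of 9 (44.4%) of the replication windows and 2.26% of all windows. CCAAT was found in 90.5% of mitosis windows, 88.9% of replication windows and 37.4% of all. Of the 20 CHR matches in mitosis windows, 15 were within 50 bases of the start. The 21 mitosis windows came from 20 genes, as Prc1 gave more than 1. Its CHR matches were at -3 and -28 bases from the start and its CCAAT boxes at -35 and -60. The spacing is the same, so the same sites may be counted in both windows. These are matches of letters, and binding was not measured.

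The first comparison asked what 16 weeks of HFD did to these genes in HuMgat2 livers. The diet raised 20 of 36 tested genes and lowered none, where 7.56% of all tested genes rose and 6.4% fell. The 20 were 14 of 23 mitosis genes, 4 of 9 replication genes (Rrm2, Mcm2, Mcm3 and Mcm4), the G1 cyclin Ccnd1, and Cdkn1a. The median log2 change was 1.37 for the mitosis genes, 0.75 for the replication genes and -0.01 for all tested genes. For 17 of the 36 genes all 4 HFD livers were above all 4 chow livers, which held for 11.6% of all tested genes. No member was lowered at an unadjusted p under 0.05 or by DESeq2.

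Among cyclins and their kinase, Ccnb1 (cyclin B1, the partner of Cdk1 at entry into mitosis; ENSMUSG00000041431, GRCm39 chromosome 13, 100915158 to 100923078) had the largest diet change in HuMgat2 mice. Its level was 0.129, 0.266, 0.269 and 0.0468 CPM on chow and 0.529, 1.68, 1.53 and 1.17 on HFD in HuMgat2, from 1 to 7 counts per chow library and 13 to 38 per HFD library. In WT it was 0.0945, 0.416, 0.181 and 0.0494 CPM on chow and 0.244, 0.25, 0.527 and 0.794 on HFD. The HuMgat2 diet groups did not overlap and the WT ones did. The change was 6.56-fold in HuMgat2 (log2 2.71 ± 0.55 SE, adjusted p = 0.00349) and did not pass in WT (log2 1.17 ± 0.62 SE, adjusted p = 0.216). Ccna2 (cyclin A2, needed in S phase and early mitosis) was at 1.42, 0.797, 0.698 and 0.562 CPM on chow and 1.59, 2.39, 2.38 and 2.46 on HFD in HuMgat2, and at 0.756, 0.509, 0.771 and 1.14 on chow and 1.07, 1.21, 1.3 and 2.22 on HFD in WT. All HFD livers of HuMgat2 exceeded all chow livers, a 2.58-fold rise (log2 1.37 ± 0.31 SE, adjusted p = 0.00689). Cdk1 itself was at 0.387, 1.02, 0.537 and 0.609 CPM on chow and 1.02, 1.15, 1.62 and 1.61 on HFD in HuMgat2, and at 0.803, 0.463, 0.635 and 0.445 on chow and 0.489, 0.626, 0.689 and 1.27 on HFD in WT. Its highest chow liver, number 14, and the lowest HFD liver, number 9, both round to 1.02 CPM, so the groups overlapped slightly, and the rise was 2.03-fold (log2 1.02 ± 0.33 SE, adjusted p = 0.0457). The Cdk1 call was kept in 10 of 22 alternative settings. Ccnb2 (cyclin B2) did not pass, with group means of 0.494 CPM on chow and 1.14 on HFD (log2 1.22 ± 0.43 SE, adjusted p = 0.0715).

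Cdc20, the activator of the anaphase-promoting complex (ENSMUSG00000006398, GRCm39 chromosome 4, 118290098 to 118294549), separated the HuMgat2 HFD livers from all others. HuMgat2 livers held 0.194, 0.418, 0.376 and 0.281 CPM on chow and 1.02, 1.28, 1.4 and 1.34 on HFD, and WT livers 0.142, 0.416, 0.136 and 0.297 on chow and 0.195, 0.25, 0.527 and 0.556 on HFD. Every HuMgat2 HFD liver lay above all 12 others, and the diet rise in HuMgat2 was 3.83-fold (log2 1.94 ± 0.36 SE, adjusted p = 0.00167). Ube2c, the ubiquitin-conjugating enzyme of the same complex, had means of 0.267 and 0.71 CPM and did not pass (log2 1.48 ± 0.57 SE, adjusted p = 0.0955). Plk1 (polo-like kinase 1, which acts from mitotic entry to cytokinesis) was at 0.194, 0.19, 0.376 and 0.281 CPM on chow and 0.529, 0.93, 1.11 and 0.627 on HFD in HuMgat2, and at 0.236, 0.37, 0.136 and 0.247 on chow and 0.342, 0.417, 0.243 and 0.874 on HFD in WT. It rose 3.04-fold in HuMgat2, without overlap between the diets (log2 1.6 ± 0.4 SE, adjusted p = 0.0137). Cdca3, a trigger of mitotic entry, stood at 0.839, 0.873, 1.93 and 0.749 CPM on chow and 1.87, 1.9, 2.55 and 1.88 on HFD in HuMgat2, and at 0.709, 0.463, 0.771 and 0.544 on chow and 0.537, 0.835, 0.972 and 0.556 on HFD in WT. Its chow library 15 lay inside the HFD range, and the rise was 1.88-fold (log2 0.91 ± 0.29 SE, adjusted p = 0.0455), a call kept in 10 of 23 alternative settings.

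The kinesins and spindle proteins that rose in HuMgat2 were Kif20a, Cenpe, Cenpf, Nusap1, Tpx2 and Prc1. Tpx2, which nucleates spindle microtubules and activates Aurora A, was at 0.517, 0.531, 0.644 and 0.468 CPM on chow and 1.18, 2.12, 2.17 and 2.46 on HFD in HuMgat2, and at 0.378, 0.509, 0.544 and 0.593 on chow and 0.537, 0.709, 0.486 and 1.75 on HFD in WT. It rose 3.65-fold in HuMgat2 (log2 1.87 ± 0.35 SE, adjusted p = 0.00199), and its WT HFD group was even except for library 4. Kif20a, a kinesin of the central spindle, was at 0.71, 0.759, 0.967 and 0.702 CPM on chow and 1.26, 2.35, 2.42 and 2.29 on HFD in HuMgat2, and at 0.803, 0.601, 0.635 and 0.445 on chow and 0.391, 0.376, 0.608 and 1.19 on HFD in WT. The rise was 2.64-fold in HuMgat2, while in WT the change was near 0 (log2 1.4 ± 0.31 SE, adjusted p = 0.00643 against log2 -0.05 ± 0.35 SE, adjusted p = 0.953). Without library 4 the WT change of Kif20a was log2 -0.43 (adjusted p = 0.436). Cenpf, a kinetochore protein, was at 0.646, 0.645, 1.13 and 0.328 CPM on chow and 1.3, 2.88, 3.02 and 2.2 on HFD in HuMgat2, and at 0.283, 0.463, 0.136 and 0.989 on chow and 0.342, 1.04, 0.932 and 1.59 on HFD in WT. All HuMgat2 HFD livers were above the chow livers, and the rise was 3.43-fold (log2 1.78 ± 0.47 SE, adjusted p = 0.0186).

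Nusap1, which bundles spindle microtubules, was at 0.969, 0.835, 1.13 and 0.889 CPM on chow and 1.34, 2.3, 2.34 and 2.11 on HFD in HuMgat2. Its WT levels were 0.945, 0.972, 0.907 and 0.939 CPM on chow and 1.12, 0.793, 0.486 and 1.59 on HFD. Chow levels were even in both genotypes. The diet rise was 2.12-fold in HuMgat2 (log2 1.08 ± 0.28 SE, adjusted p = 0.0153), and the WT change did not pass (log2 0.02 ± 0.3 SE, adjusted p = 0.975; log2 -0.25 without library 4). Prc1, which cross-links microtubules of the central spindle, was at 0.452, 0.455, 1.02 and 0.843 CPM on chow and 1.1, 1.86, 1.91 and 1.88 on HFD in HuMgat2, and at 0.331, 1.06, 0.499 and 0.346 on chow and 0.782, 0.793, 1.05 and 1.27 on HFD in WT. It rose 2.43-fold in HuMgat2 (log2 1.28 ± 0.35 SE, adjusted p = 0.022), with all HFD livers above all chow livers.

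Mki67, the gene of the proliferation marker Ki-67 (ENSMUSG00000031004, GRCm39 chromosome 7, 135291513 to 135318090), and Top2a, the topoisomerase that untangles replicated chromosomes, had the highest CPM among the mitosis genes in HuMgat2 on HFD. Both have long exons, and per kilobase of exon Mki67 was at 1.2 and Top2a at 0.497 CPM per kb. On that scale Top2a was below several mitosis genes, such as Aurka at 0.831 and Cdca3 at 0.763. Mki67 was at 4.46, 2.58, 5.1 and 2.53 CPM on chow and 7.65, 13.2, 13.9 and 13.7 on HFD in HuMgat2, with 1.75, 2.54, 2.18 and 4.3 on chow and 2.64, 4.55, 3.4 and 18.6 on HFD in WT. The HuMgat2 rise was 3.34-fold (log2 1.74 ± 0.49 SE, adjusted p = 0.0254) without overlap. In WT the HFD mean of 7.29 ± 7.57 CPM (SD, n = 4) included library 4 at 18.6 CPM, and the change did not pass (log2 1.38 ± 0.51 SE, adjusted p = 0.0769). Without that library it was 0.4 on the log2 scale (adjusted p = 0.457). Top2a was at 1.42, 1.25, 2.2 and 1.12 CPM on chow and 3.58, 3.94, 4.42 and 5.96 on HFD in HuMgat2, and 0.945, 1.8, 0.861 and 1.53 on chow and 1.17, 1.84, 1.7 and 9.37 on HFD in WT. It rose 3-fold in HuMgat2 (log2 1.58 ± 0.51 SE, adjusted p = 0.0477). This call was kept in 11 of 23 alternative settings and lost when any of 12 single libraries was left out.

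The other 9 tested mitosis genes did not pass for the diet in HuMgat2. Aurkb, the kinase of the chromosomal passenger complex, came close, with 0 to 6 counts per chow library and 6 to 16 per HFD library (log2 1.84 ± 0.6 SE, adjusted p = 0.0508). Its partners differed, since Cdca8 had log2 1.16 ± 0.43 SE, adjusted p = 0.0807 and Birc5 (survivin) log2 0.11 ± 0.29 SE, adjusted p = 0.848. Kif11, the kinesin that pushes spindle poles apart, had log2 0.86 ± 0.29 SE, adjusted p = 0.0583, and Kif23, a kinesin of cytokinesis, log2 0.81 ± 0.41 SE, adjusted p = 0.219. Aurka, the kinase of the spindle poles, had group means of 1.9, 1.88, 2.04 and 2.1 CPM (log2 0.05 ± 0.17 SE, adjusted p = 0.891). The checkpoint kinase gene Bub1 had 1 to 4 counts in HuMgat2 chow libraries and 4 to 16 in HuMgat2 HFD libraries and was not tested, and its relative Bub1b had log2 0.65 ± 0.43 SE, adjusted p = 0.351.

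**Figure D2:**
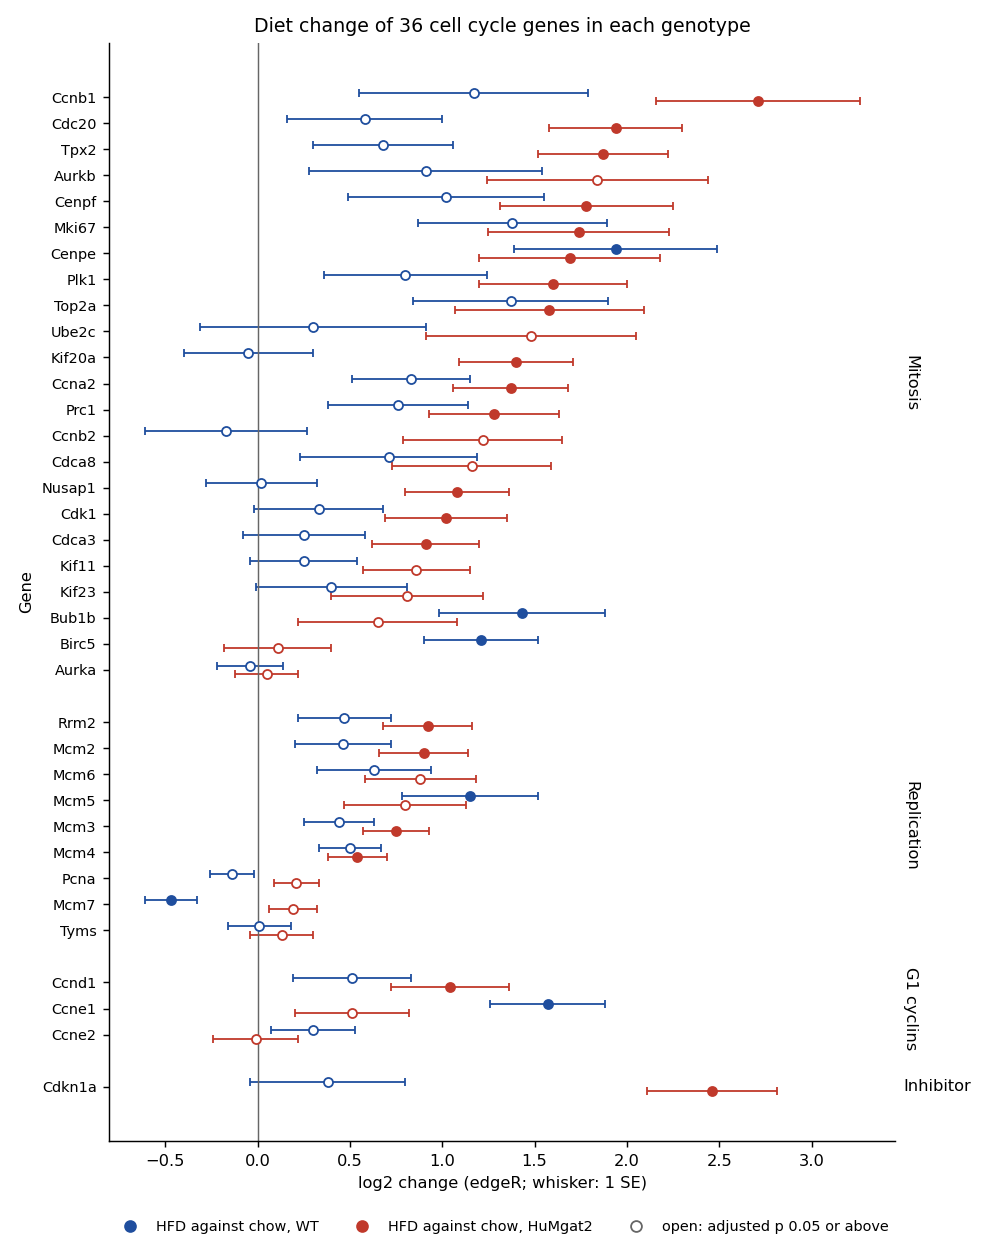
Log2 change from chow to HFD for the 36 tested genes, in WT (blue) and HuMgat2 (red), with whiskers of 1 SE; filled points have an adjusted p below 0.05 in the edgeR test. In HuMgat2 20 points are filled and none is below 0 among them, and in WT 6 are filled, with Mcm7 on the negative side.

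Of the replication genes, the helicase subunits Mcm2, Mcm3 and Mcm4 and the ribonucleotide reductase subunit Rrm2 rose in HuMgat2. Mcm3 (ENSMUSG00000041859, GRCm39 chromosome 1, 20873192 to 20890536) was at 3.03, 3.87, 3.49 and 2.86 CPM on chow and 4.35, 4.74, 6.29 and 6.95 on HFD in HuMgat2, and at 2.88, 3.05, 3.04 and 1.98 on chow and 3.52, 3.3, 4.13 and 3.97 on HFD in WT. It rose 1.68-fold in HuMgat2, with no overlap (log2 0.75 ± 0.18 SE, adjusted p = 0.0109). Mcm2 was at 2.58, 4.02, 4.78 and 3.18 CPM on chow and 4.68, 5.67, 7.14 and 9.9 on HFD in HuMgat2, and at 2.46, 2.36, 1.77 and 3.02 on chow and 2.34, 3.42, 3.73 and 3.73 on HFD in WT. Its chow library 15 was just above HFD library 9, and the rise was 1.87-fold (log2 0.9 ± 0.24 SE, adjusted p = 0.0194). Mcm4 was at 4.2, 4.21, 6.02 and 4.31 CPM on chow and 5.62, 6.82, 6.63 and 8.2 on HFD in HuMgat2, and at 3.21, 2.64, 3.13 and 3.76 on chow and 3.81, 4.46, 4.34 and 5.48 on HFD in WT. The rise was 1.46-fold (log2 0.54 ± 0.16 SE, adjusted p = 0.0362). Rrm2, which makes the deoxynucleotides for DNA synthesis, was at 3.23, 2.2, 3.11 and 4.96 CPM on chow and 4.6, 6.68, 6.42 and 7.8 on HFD in HuMgat2, and at 2.65, 2.73, 3.35 and 3.36 on chow and 4.3, 2.96, 5.87 and 3.5 on HFD in WT. It rose 1.89-fold (log2 0.92 ± 0.24 SE, adjusted p = 0.0185), although chow library 16 overlapped HFD library 9.

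The remaining 5 replication genes did not pass in HuMgat2, although their log2 changes were all above 0. Mcm6 had log2 0.88 ± 0.3 SE, adjusted p = 0.0611 and Mcm5 log2 0.8 ± 0.33 SE, adjusted p = 0.13, both with HFD library 12 far above the others. Mcm7 (log2 0.19 ± 0.13 SE, adjusted p = 0.396), Pcna (log2 0.21 ± 0.12 SE, adjusted p = 0.288) and Tyms, the thymidylate synthase (log2 0.13 ± 0.17 SE, adjusted p = 0.67), changed by at most 0.21 on the log2 scale. The 6 MCM subunits form one ring, and their changes in HuMgat2 ran from 0.19 for Mcm7 to 0.9 for Mcm2.

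Ccnd1 (cyclin D1, which carries growth signals into G1) was the most abundant of the G1 cyclins. Its levels were 9.3, 17.8, 12.3 and 13.9 CPM on chow and 19.6, 23.8, 22 and 44.7 on HFD in HuMgat2, and 13.7, 17, 15.4 and 14.3 on chow and 14.4, 22.9, 37.5 and 10.9 on HFD in WT. All HuMgat2 HFD livers exceeded the chow livers, library 12 by far, and the rise was 2.05-fold (log2 1.04 ± 0.32 SE, adjusted p = 0.0405). This call was kept in 14 of 23 alternative settings. The WT HFD livers were spread from 10.9 to 37.5 CPM, and the diet change there did not pass (log2 0.51 ± 0.32 SE, adjusted p = 0.309). Ccne1 and Ccne2 (E cyclins, which act at the start of S phase) did not pass in HuMgat2 (log2 0.51 ± 0.31 SE, adjusted p = 0.3 and log2 -0.01 ± 0.23 SE, adjusted p = 0.978).

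Cdkn1a (ENSMUSG00000023067, GRCm39 chromosome 17, 29309950 to 29319701) was the member with the smallest adjusted p. HuMgat2 livers held 2.13, 3.19, 2.95 and 2.11 CPM on chow and 12.9, 13.1, 15.4 and 15.9 on HFD, a 5.48-fold rise (log2 2.46 ± 0.35 SE, adjusted p = 0.000213). WT livers held 1.23, 0.787, 1.09 and 1.29 CPM on chow and 0.44, 1.17, 0.972 and 3.65 on HFD, with no call (log2 0.38 ± 0.42 SE, adjusted p = 0.601). The sign of that WT change came from library 4, at 3.65 CPM: without it the log2 change was -0.32 (adjusted p = 0.502). Every HuMgat2 HFD liver had at least 12.9 CPM and no other liver more than 3.65 CPM. The diet rise of Cdkn1a in HuMgat2 passed under all 23 alternative settings.

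**Figure D3:**
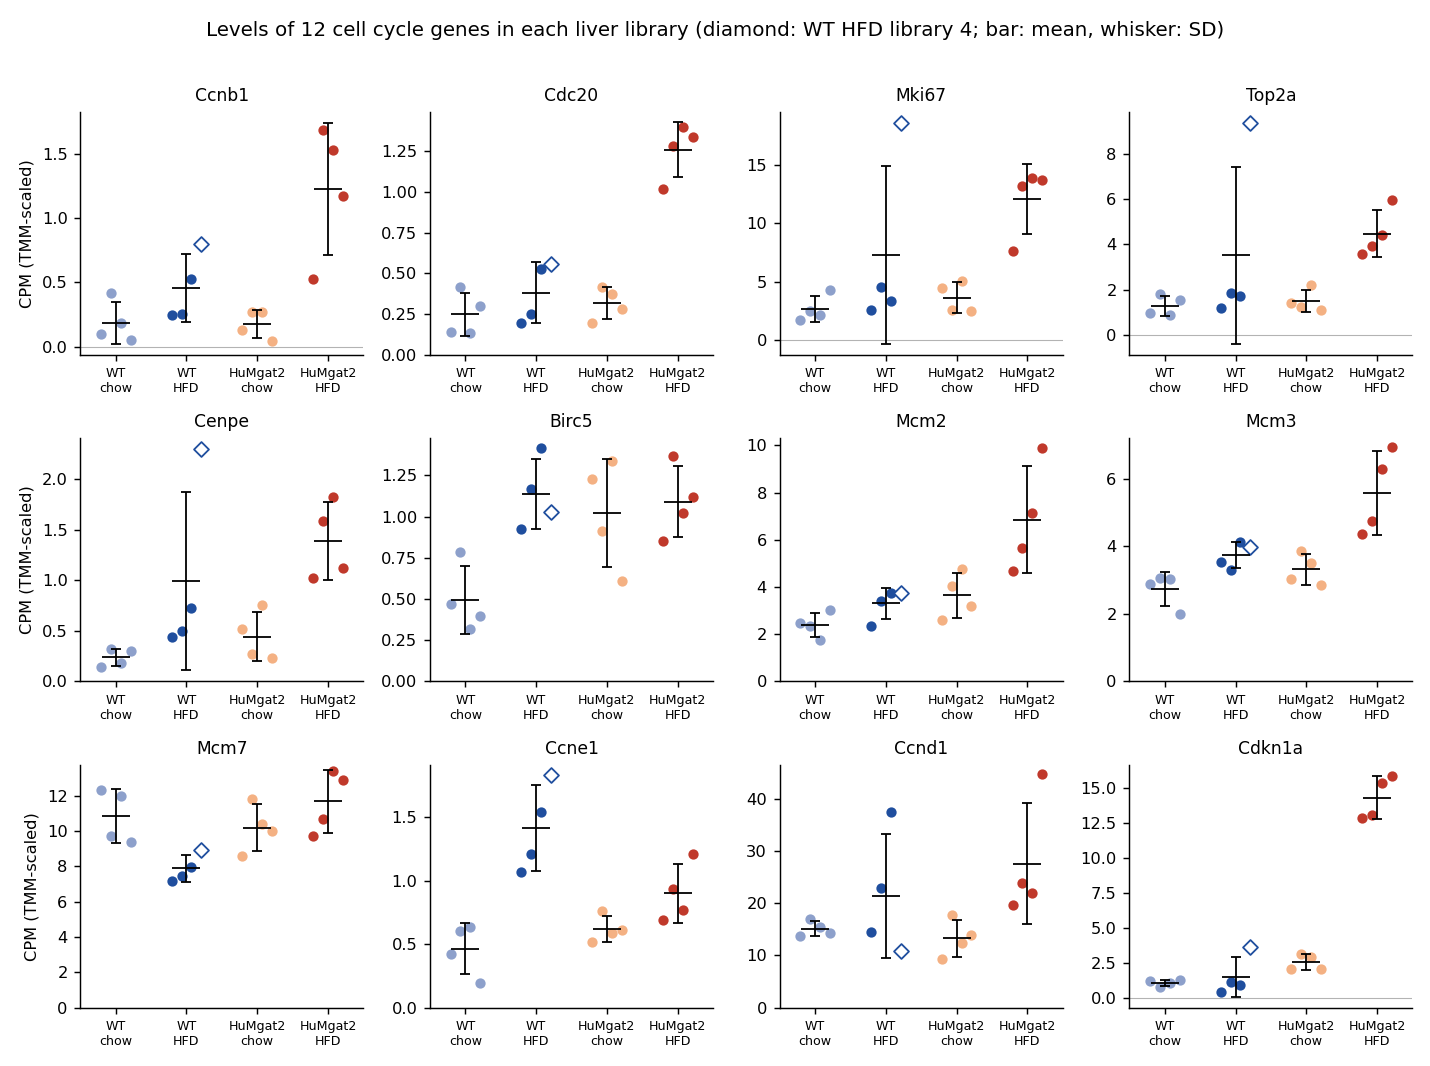
Levels in CPM of 12 of the genes in each library, by group; the open diamond is WT HFD library 4, bars are means and whiskers SD (n = 4). Cdkn1a and Cdc20 set the 4 HuMgat2 HFD livers above all others, while Mki67, Top2a and Cenpe also show 1 WT HFD liver far above its group.

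Leaving out single libraries changed how many genes rose in HuMgat2. The 20 fell to 11 without HuMgat2 chow library 16 or HFD library 10 or 12, to 12 without chow library 13 or HFD library 11, and to 13 without chow library 14. When WT HFD library 4 was dropped from the shared fit, although it belongs to neither group, 23 genes passed, including all 20. Ccnb1, Ccna2, Cdc20, Plk1, Kif20a, Nusap1, Tpx2, Mcm3 and Cdkn1a kept their calls in every alternative setting that tested them. Each of the others among the 20 lost its call when any of at least 3 single libraries was left out.

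Marker genes of other liver cells moved with the diet in HuMgat2 mice. Of 11 stellate cell markers 8 rose, and their sum ran from 240 to 387 CPM on chow and from 546 to 607 CPM on HFD. The 4 largest rises were those of the collagens Col1a1 (4.89-fold), Col1a2 (3.93-fold) and Col3a1 (3.69-fold) and of the retinol-storing enzyme Lrat (2.2-fold), with edgeR adjusted p of 0.000419, 0.000161, 4.25e-05 and 0.0013. Of 14 tested macrophage markers 2 rose, Gpnmb and Trem2 (5 when library 4 of WT on HFD was left out of the shared fit), with sums of 225 to 295 CPM on chow and 305 to 372 CPM on HFD. Of 9 hepatocyte markers 4 fell (Tat, Cps1, Ass1 and Hnf4a), with sums of 69022 to 96271 CPM on chow and 67509 to 77789 CPM on HFD. Fewer markers moved in the remaining lists: 2 of 11 endothelial markers (Lyve1 and Vwf) and 1 tested adipocyte marker (Cfd) rose, 1 cholangiocyte marker rose (Spp1) and 1 fell (Sox9). The part of these cell types in the rise of the cell cycle genes was not tested.

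The second comparison asked the same of WT livers. HFD raised 5 of the 36 genes and lowered 1, and over all tested genes 8.37% rose and 6.74% fell, so the count of members called was close to what that background gives. The 5 were Birc5, Bub1b, Cenpe, Mcm5 and Ccne1, and the gene that fell was Mcm7. Median log2 changes were 0.71 for the mitosis genes, 0.46 for the replication genes and 0.03 for all tested genes. In 8 of 36 genes all 4 HFD livers were above all 4 chow livers, against 9.09% of all tested genes. Without WT HFD library 4 the calls of Bub1b, Cenpe and Mcm5 were lost, Birc5, Ccne1 and Mcm7 kept theirs, and the median of the mitosis genes was 0.34.

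Ccne1 (ENSMUSG00000002068, GRCm39 chromosome 7, 37797409 to 37806959) had the smallest adjusted p of the 36 members in the WT diet comparison. WT livers held 0.425, 0.601, 0.635 and 0.198 CPM on chow and 1.07, 1.21, 1.54 and 1.83 on HFD, and HuMgat2 livers 0.517, 0.759, 0.591 and 0.609 on chow and 0.692, 0.93, 0.765 and 1.21 on HFD. The WT diet groups did not overlap, and the rise was 2.96-fold (log2 1.57 ± 0.31 SE, adjusted p = 0.00325). Birc5 was at 0.472, 0.787, 0.317 and 0.395 CPM on chow and 0.928, 1.17, 1.42 and 1.03 on HFD in WT, and at 1.23, 0.911, 1.34 and 0.609 on chow and 0.855, 1.37, 1.02 and 1.12 on HFD in HuMgat2. It rose 2.31-fold in WT (log2 1.21 ± 0.31 SE, adjusted p = 0.0165), to a mean of 1.14 CPM, and the HuMgat2 chow mean was 1.02 CPM. The chow livers of the genotypes overlapped for Birc5, and their difference did not pass (log2 1.02 ± 0.32 SE, adjusted p = 0.207).

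Cenpe, the kinetochore motor that brings chromosomes to the spindle equator, was the only gene of the 37 that rose in both genotypes, which is 1 of the 5 raised in WT and 1 of the 20 raised in HuMgat2. Its WT levels were 0.142, 0.324, 0.181 and 0.297 CPM on chow and 0.44, 0.501, 0.729 and 2.3 on HFD, and its HuMgat2 levels 0.517, 0.266, 0.752 and 0.234 on chow and 1.02, 1.59, 1.83 and 1.12 on HFD. The rises were 3.83-fold in WT (log2 1.94 ± 0.55 SE, adjusted p = 0.0264) and 3.22-fold in HuMgat2 (log2 1.69 ± 0.49 SE, adjusted p = 0.028). Without library 4 the WT change was 1.23 on the log2 scale (adjusted p = 0.0739). Bub1b, a kinase-like protein of the spindle checkpoint, was at 0.425, 0.509, 0.227 and 0.445 CPM on chow and 0.879, 0.709, 0.648 and 2.38 on HFD in WT, and at 1.16, 0.455, 0.537 and 0.375 on chow and 0.936, 1.11, 0.723 and 1.08 on HFD in HuMgat2. The WT rise was 2.69-fold (log2 1.43 ± 0.45 SE, adjusted p = 0.0417), with library 4 at more than any other liver, and without it the log2 change was 0.88 (adjusted p = 0.13).

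Mcm5 and Mcm7, subunits of the same ring, moved in opposite directions in WT. Mcm5 was at 0.898, 0.74, 0.952 and 1.14 CPM on chow and 1.37, 1.75, 1.7 and 3.73 on HFD in WT, and at 2.26, 2.39, 2.42 and 1.69 on chow and 2.6, 2.52, 3.06 and 7.04 on HFD in HuMgat2. It rose 2.22-fold in WT (log2 1.15 ± 0.37 SE, adjusted p = 0.048), a call kept in 8 of 23 alternative settings and lost without library 4 (log2 0.79, adjusted p = 0.146). Mcm7 was at 12.3, 9.72, 12 and 9.39 CPM on chow and 7.18, 7.47, 7.98 and 8.9 on HFD in WT, and at 8.59, 11.8, 10.4 and 10 on chow and 9.69, 10.7, 13.4 and 12.9 on HFD in HuMgat2. All 4 WT HFD livers were below all 4 WT chow livers (log2 -0.47 ± 0.14 SE, adjusted p = 0.0306). Reads of Mcm7 that overlap Ap4m1 on the other strand (8.67% of its exon bases) could not be told apart, since strand was not used in the counting.

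Markers of other cells moved in WT as well. Of 14 tested macrophage markers 8 rose and none fell, and their sum was 190 to 327 CPM on chow and 302 to 1300 CPM on HFD. The 4 with the largest rises were Gpnmb (45.9-fold, adjusted p = 0.0031), Trem2 (8.01-fold, 0.00604), Ccr2 (6.52-fold, 0.0193) and Mpeg1 (4.04-fold, 0.00121) by edgeR. Without library 4, 5 macrophage markers rose (4 to 12 over all fits that left out 1 library), with a median log2 change of 0.4 against 1.18 with it. The log2 change of Gpnmb was then 3.43 and that of Ccr2 0.94, without a call (adjusted p = 0.0768). Of 11 stellate markers 3 rose, Col1a1, Col3a1 and Col1a2. Among the 12 granulocyte markers only Prtn3 had enough counts to be tested and it rose (log2 6.97 ± 1.58 SE, adjusted p = 0.0104), while Mpo, Ctsg and Ly6g were at 0 in all WT chow livers. Without library 4 the log2 change of Prtn3 was 3.49. Single markers of plasma cells (Jchain), endothelium (Lyve1), cholangiocytes (Spp1), erythroid cells (Klf1) and adipocytes (Cfd) and 2 of T and NK cells (Cd4 and Nkg7) also rose, and the hepatocyte marker Hnf4a fell. Jchain and Klf1 went against most of their lists. Of 5 tested B and plasma cell markers 1 had a log2 change above 0 (median -0.35), and of 8 tested erythroid markers 2 did (median -0.36). The calls of Spp1 and Nkg7 were lost without library 4. The sum over 5 adipocyte markers was 83.3, 130, 79 and 0.238 CPM in WT on HFD and at most 0.463 CPM in WT on chow, so here library 4 was the low one. Of these markers Adipoq, Plin1 and Lep were at 0 in all WT HFD livers, so the sum holds only Cfd and Retn there. The part of these cells in the member changes was not tested, and without library 4 the granulocyte sum of WT HFD livers was 1.01 to 2.96 CPM.

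Set side by side, the log2 diet change was larger in HuMgat2 than in WT for 20 of 23 mitosis genes, 8 of 9 replication genes and 30 of all 36. It was larger in HuMgat2 for 7767 of the 17318 tested genes. Without WT HFD library 4 the difference between the diet changes turned from log2 -0.25 to 0.46 for Cenpe and from 0.12 to -0.01 for Tyms. For Mcm5 it went from -0.35 to 0.0. The test of the difference itself, the diet by genotype interaction, passed for 1 of 36 genes, Cdkn1a (log2 2.07 ± 0.55 SE, adjusted p = 0.0385), with 0 in the other direction, and the background was 2.61% of tested genes higher and 2.26% lower. At an unadjusted p under 0.05 there were 7 genes with a larger and 2 with a smaller diet change in HuMgat2, and DESeq2 called 2 larger and 0 smaller. The 2 smaller ones were Birc5 (log2 -1.1 ± 0.43 SE, adjusted p = 0.169) and Ccne1 (log2 -1.05 ± 0.44 SE, adjusted p = 0.202). Median interaction terms were 0.66 for the mitosis genes (1.03 without WT HFD library 4), 0.31 for the replication genes and -0.05 for all tested genes. The Cdkn1a term lost its call when any of 12 single libraries was left out, with log2 values of 1.76 to 2.78 over all alternatives, the highest without WT HFD library 4. Without that library, 5 genes passed: Cdkn1a, Kif20a, Nusap1, Tpx2 and Mcm7.

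The third comparison, HuMgat2 against WT on chow, asked whether the genotypes differed without the fatty diet. By the edgeR test 0 of 36 members passed in either direction, where 0.266% of tested genes were higher and 0.243% lower. At an unadjusted p under 0.05, 6 members were higher and none lower, and DESeq2 called 0. The median log2 difference was 0.17 for the mitosis genes, 0.28 for the replication genes and 0 for all tested genes. Mcm5 had a mean of 0.932 ± 0.164 CPM in WT and 2.19 ± 0.342 CPM in HuMgat2 (log2 1.23 ± 0.37 SE, adjusted p = 0.196), and Cdkn1a 1.1 ± 0.223 and 2.59 ± 0.558 CPM (log2 1.25 ± 0.4 SE, adjusted p = 0.223; SD, n = 4). Without WT HFD library 4 in the shared fit, Cdkn1a passed, with an adjusted p of 0.0109.

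The fourth comparison set HuMgat2 against WT on HFD, and it shares the HuMgat2 HFD libraries with the first. HuMgat2 livers were higher in 11 of 36 genes and lower in none, against 7.21% higher and 7.56% lower over all tested genes. The 11 were 6 mitosis genes (Ccnb1, Cdc20, Kif20a, Nusap1, Tpx2 and Cdca3), the helicase subunits Mcm2, Mcm3, Mcm4 and Mcm7, and Cdkn1a. At an unadjusted p under 0.05, 22 members were higher and 1, Ccne1, was lower (log2 -0.64 ± 0.29 SE, adjusted p = 0.141), and DESeq2 called 12 higher and 0 lower. Median log2 differences were 0.86 for the mitosis genes, 0.6 for the replication genes and -0.04 for all tested genes.

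Cdkn1a differed most, at 14.3 ± 1.54 CPM in HuMgat2 against 1.56 ± 1.43 CPM in WT, a 10-fold difference (log2 3.32 ± 0.38 SE, adjusted p = 3.37e-05; SD, n = 4), and it passed under all 23 alternatives. Leaving out library 4 of the WT HFD group made the log2 difference larger, at 4.03 (adjusted p = 1.55e-08). Kif20a was 3.43-fold higher (log2 1.78 ± 0.32 SE, adjusted p = 0.00177), with the caution that 29.9% of its exon bases overlap Cdc23 on the other strand. Cdc20 was 3.36-fold higher (log2 1.75 ± 0.35 SE, adjusted p = 0.00357), Ccnb1 2.83-fold (log2 1.5 ± 0.49 SE, adjusted p = 0.049), Cdca3 2.75-fold (log2 1.46 ± 0.3 SE, adjusted p = 0.00419), Tpx2 2.42-fold (log2 1.28 ± 0.34 SE, adjusted p = 0.0186) and Nusap1 2.11-fold (log2 1.08 ± 0.28 SE, adjusted p = 0.0175). The Ccnb1 groups overlapped, and its call was kept in 10 of 22 alternative settings. Among the helicase genes Mcm2 was 2.07-fold higher (log2 1.05 ± 0.25 SE, adjusted p = 0.00924), Mcm4 1.51-fold (log2 0.6 ± 0.17 SE, adjusted p = 0.0229), Mcm3 1.5-fold (log2 0.58 ± 0.18 SE, adjusted p = 0.0388) and Mcm7 1.48-fold (log2 0.57 ± 0.14 SE, adjusted p = 0.011). For Mcm7 the WT HFD livers were low, at 7.88 ± 0.753 CPM, while HuMgat2 on HFD (11.7 ± 1.78 CPM) stood near both chow groups (10.9 ± 1.51 and 10.2 ± 1.34 CPM; SD, n = 4).

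Leaving out WT HFD library 4 moved this count more than leaving out any other library. Without it 21 members were higher in HuMgat2 on HFD, all 11 and in addition Ccna2, Cdk1, Mki67, Top2a, Plk1, Kif11, Cenpe, Cenpf, Mcm5 and Mcm6, and the median of the mitosis genes was 1.29. The count was 7 without WT HFD library 2 or HuMgat2 HFD library 12. The sums of 3 marker lists did not overlap between the groups. T and NK cell markers were at 1.67 to 2.06 CPM in HuMgat2 and 4.25 to 21.3 CPM in WT, and stellate markers at 546 to 607 and 353 to 473 CPM. Endothelial markers were at 380 to 391 CPM in HuMgat2 and 334 to 374 CPM in WT, and 0 of the 11 was called. The sums overlapped for macrophage markers, at 305 to 372 CPM in HuMgat2 and 302 to 1300 CPM in WT (302 to 481 without library 4), and for erythroid markers, at 55.7 to 88.1 and 31.9 to 73.7 CPM. All 3 tested T and NK markers (Cd4, Nkg7 and Cd3e) and 2 of 14 macrophage markers (Marco and Mpeg1) were lower in HuMgat2, and 4 of 11 stellate markers (Lrat, Lum, Dcn and Pdgfrb) were higher. Without library 4 neither macrophage marker was lower and 2 macrophage markers were higher. The median log2 difference of that list was then 0.11, against -0.58 with library 4. The count of higher stellate markers was then 5. Of 8 tested erythroid markers, the hemoglobin genes Hba-a1, Hba-a2 and Hbb-bt were higher in HuMgat2 and Klf1 was lower, with a median log2 difference of 1.11 and each call lost in 2 to 7 of 16 fits that left out 1 library. With library 4 of WT on HFD left out, 4 erythroid markers were higher and 1 was lower. Of 9 hepatocyte markers 3 were lower (Apoa1, Cps1 and Tat), as were the granulocyte marker Prtn3 and the adipocyte marker Cfd. Their part in the member differences was not tested.

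**Figure D4:**
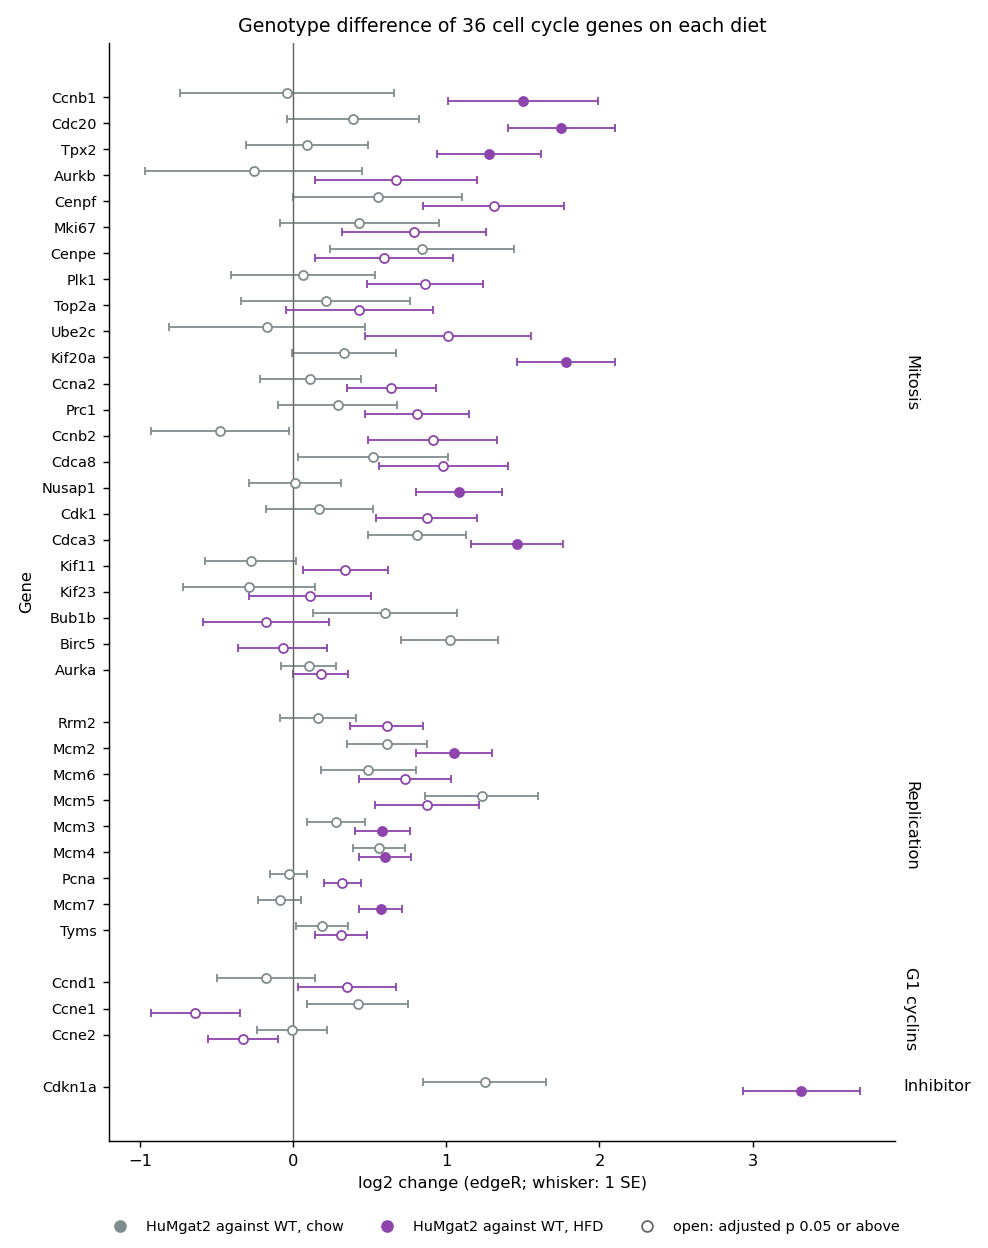
Log2 difference of HuMgat2 from WT for the 36 tested genes, on chow (grey) and on HFD (purple), with whiskers of 1 SE; filled points have an adjusted p below 0.05 in the edgeR test. On chow no point is filled, and on HFD 11 are, with Cdkn1a the farthest to the right at 3.32.

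Of 47 tested genes of DNA replication outside the 37, HFD raised 8 and lowered 1 in HuMgat2 and raised 6 and lowered 2 in WT, with medians of 0.27 and 0.17. Over all tested genes 7.56% rose and 6.4% fell in HuMgat2 and 8.37% and 6.74% in WT, so the WT counts were near the background. The WT counts also hung on single libraries, with 1 raised and 1 lowered without WT chow library 5, 2 raised and 1 lowered without WT chow library 7, and 3 raised and 3 lowered without WT HFD library 4. In HuMgat2 5 rose without HFD library 12. In HuMgat2 the 4 largest changes were those of Uhrf1, which copies DNA methylation at forks (log2 2.31 ± 0.55 SE, adjusted p = 0.00912), Dtl (log2 1.79 ± 0.47 SE, adjusted p = 0.0167), Gins2, a part of the replicative helicase (log2 1.38 ± 0.4 SE, adjusted p = 0.0282), and the salvage enzyme Tk1, which fell (log2 -1.34 ± 0.16 SE, adjusted p = 6.03e-05). Tk1 had group means of 14.5 ± 2.61 CPM in WT on chow, 15.9 ± 3.12 in WT on HFD, 17.3 ± 2.88 in HuMgat2 on chow and 6.87 ± 0.877 in HuMgat2 on HFD (SD, n = 4). Its interaction term also passed (log2 -1.47 ± 0.23 SE, adjusted p = 0.00139). In WT the 4 largest were Uhrf1 (log2 1.86 ± 0.59 SE, adjusted p = 0.0422), the repair gene Brca1 (log2 1.38 ± 0.38 SE, adjusted p = 0.0232), the helicase gene Gins1 (log2 1.28 ± 0.31 SE, adjusted p = 0.0126) and Prim1, the primase subunit, which fell (log2 -0.88 ± 0.27 SE, adjusted p = 0.0349). The calls of Uhrf1 and Brca1 were lost when HFD library 4 was left out (adjusted p = 0.137 and 0.0615). Those of Uhrf1, Brca1 and Prim1 were lost when chow library 5 or chow library 7 was left out. In HuMgat2 against WT on HFD 8 were higher and 1, Tk1, was lower, and the 3 largest of the 8 were Prim1, the chromatin assembly factor Chaf1a and the clamp loader Rfc3. The 8 became 4 without WT HFD library 1 or 3 or HuMgat2 HFD library 10, 11 or 12, and 5 without WT HFD library 2. Without WT HFD library 4, 3 genes were lower. Besides Tk1, the interaction passed for the ligase gene Lig1 and for Rfc3 with a larger diet change in HuMgat2, and both calls were lost in at least 8 of 16 fits that left out 1 library.

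Of 53 tested genes of mitosis outside the 37, 20 rose and 1 fell in HuMgat2 (median 0.73), and 4 rose and 1 fell in WT (median 0.41), where 7.56% and 6.4% of all tested genes did so in HuMgat2 and 8.37% and 6.74% in WT. In HuMgat2 13 rose without HFD library 11 and 14 without chow library 16. In WT 1 rose without chow library 5, 2 rose without chow library 6 or 7, and the median was 0.19 without HFD library 4. The 4 largest changes in HuMgat2 were those of the kinetochore gene Nuf2 (log2 2.79 ± 0.71 SE, adjusted p = 0.0143), Ckap2l (log2 2.57 ± 0.62 SE, adjusted p = 0.0102), Ckap2 (log2 2.32 ± 0.45 SE, adjusted p = 0.00235) and Gtse1 (log2 2.1 ± 0.36 SE, adjusted p = 0.000914), the last 3 being genes of spindle or G2 proteins. Foxm1, the transcription factor of G2 and mitosis genes, was also among the 20 and was named after its values were seen (log2 1.6 ± 0.43 SE, adjusted p = 0.0187). The gene that fell was Ccnf (cyclin F), with log2 -0.72 ± 0.19 SE, adjusted p = 0.0167. In WT the 4 largest were Cenpm (log2 1.67 ± 0.48 SE, adjusted p = 0.0276), Ect2 (log2 1.22 ± 0.36 SE, adjusted p = 0.0292), Ncapg2 (log2 1.0 ± 0.29 SE, adjusted p = 0.0266) and Ncapd2 (log2 0.64 ± 0.19 SE, adjusted p = 0.0279), and Pttg1 (securin) fell (log2 -0.55 ± 0.13 SE, adjusted p = 0.011). Each of the 4 WT rises lost its call when any of at least 3 single libraries was left out, those of Ncapg2 and Ncapd2 without HFD library 4. On HFD 9 were higher in HuMgat2 than in WT and none lower, led by Ckap2, Ckap2l, Hmmr and Gtse1, where 7.21% of all tested genes were higher and 7.56% lower. The 9 became 17 without WT HFD library 4, 5 without WT HFD library 1, 2 or 3 or HuMgat2 HFD library 10 or 12, 6 without HuMgat2 HFD library 11, and 22 by voom. The calls of Ckap2 and Gtse1 held whichever library was left out, and those of Ckap2l and Hmmr were each lost in 7 of 16 such fits. The count of lower genes was also 0 by DESeq2 and at an unadjusted p under 0.05. The interaction passed for 1, the kinesin gene Kif4, a call lost in 13 of 16 fits that left out 1 library.

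Of 55 tested histone genes, whose messages are made mainly in S phase, 14 rose on HFD in WT and none fell (0 lower also by DESeq2 and at an unadjusted p under 0.05), led by H1f5 (log2 2.81 ± 0.59 SE, adjusted p = 0.0051), H2ac15 (log2 2.74 ± 0.58 SE, adjusted p = 0.00529), H3c11 (log2 1.6 ± 0.36 SE, adjusted p = 0.0077) and H3c10 (log2 1.55 ± 0.38 SE, adjusted p = 0.0127). Over all tested genes 8.37% rose and 6.74% fell in WT, and 7.56% rose and 6.4% fell in HuMgat2. In HuMgat2 0 histone genes passed by edgeR, 4 had an unadjusted p under 0.05, all higher, and DESeq2 called 1. Their summed level was 234, 221, 257 and 268 CPM in WT on chow, 262, 298, 280 and 463 in WT on HFD, 312, 257, 242 and 306 in HuMgat2 on chow and 291, 272, 290 and 279 in HuMgat2 on HFD, and WT HFD library 4 was the highest. Without it 10 histone genes rose in WT, with a median log2 change of 0.13 against 0.53 with it, and 6 rose in HuMgat2. The log2 change of H1f5 was then 2.13 and that of H3c10 0.92. The WT count was 9 without chow library 5 and 8 without chow library 6. The interaction passed as a smaller diet change in HuMgat2 for 4, H4c17, H4c18, H1f3 and H1f4, and for 1 to 5 genes over the fits that left out 1 library. Over all tested genes it passed in that direction for 2.26%. Histone copies are nearly identical, and reads could be split between them.

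Of 31 tested regulators of the G1 phase, HFD raised 4 and lowered 2 in WT and raised 4 and lowered 3 in HuMgat2. With medians of -0.05 and 0.02 and 8.37% raised and 6.74% lowered in WT and 7.56% and 6.4% in HuMgat2 over all tested genes, these counts were near the background. They fell to 2 raised and 1 lowered in WT without chow library 5, and in HuMgat2 1 to 4 were lowered over the fits that left out 1 library. E2f8, a repressor of E2F targets, rose in both genotypes, from 6.71 ± 1.24 to 19.1 ± 5.08 CPM in WT (log2 1.51 ± 0.33 SE, adjusted p = 0.00578) and from 4.98 ± 2.04 to 14.7 ± 5.67 CPM in HuMgat2 (log2 1.58 ± 0.33 SE, adjusted p = 0.00458). Rbl1 (p107), a pocket protein related to Rb, rose in both as well (log2 1.32 ± 0.24 SE, adjusted p = 0.00217 in WT and log2 1.03 ± 0.24 SE, adjusted p = 0.00911 in HuMgat2). Myc rose in WT (log2 2.13 ± 0.56 SE, adjusted p = 0.0174), with a mean of 14.1 ± 13.2 CPM on HFD against 3.26 ± 0.907 CPM on chow, and Cdkn2d rose there too. The Myc call was lost without WT chow library 5 or HFD library 2, and that of Cdkn2d without HFD library 4 (adjusted p = 0.0982). In HuMgat2 the kinase inhibitor Cdkn2c (log2 0.93 ± 0.23 SE, adjusted p = 0.0111) and the G1 kinase Cdk6 (log2 0.68 ± 0.15 SE, adjusted p = 0.00549) rose. On HFD the activating E2F gene E2f1 was higher in HuMgat2 than in WT (log2 0.77 ± 0.17 SE, adjusted p = 0.0076), and Myc (log2 -1.99 ± 0.55 SE, adjusted p = 0.0228; SD, n = 4 for all means) and Rbbp4 were lower. The lower calls were both lost when library 2 of WT on HFD, or library 11 or 12 of HuMgat2 on HFD, was left out. The interaction passed for 1 gene, E2f3, and not in 12 of 16 fits that left out 1 library.

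Since Cdkn1a is induced by p53, 26 further targets of p53 were examined. On HFD 13 of 26 were higher in HuMgat2 than in WT and none was lower, with a median of 0.4 against 7.21% higher and 7.56% lower over all tested genes, 1 lower at an unadjusted p under 0.05 and 16 higher and 1 lower by DESeq2. The 4 with the largest differences were Phlda3, a brake on Akt, at 2.77 ± 0.662 against 0.416 ± 0.177 CPM (log2 2.69 ± 0.37 SE, adjusted p = 0.000182), the death receptor gene Eda2r at 5.99 ± 0.885 against 0.986 ± 0.186 CPM (log2 2.6 ± 0.26 SE, adjusted p = 7.69e-06), the death receptor gene Tnfrsf10b at 1.75 ± 0.489 against 0.297 ± 0.0518 CPM (log2 2.51 ± 0.36 SE, adjusted p = 0.000293), and Gdf15, a stress-induced hormone, at 9.77 ± 2.39 against 3.12 ± 1.57 CPM (log2 1.69 ± 0.41 SE, adjusted p = 0.011; SD, n = 4). Mdm2, the ligase that degrades p53, was also higher, by 1.32-fold (log2 0.4 ± 0.11 SE, adjusted p = 0.0237). It was named after its values were seen, and its call was lost in 4 of 16 fits that left out 1 library. With the diet in HuMgat2 9 rose and 2 fell, led by Phlda3 (log2 2.82 ± 0.38 SE, adjusted p = 0.000109), Eda2r (log2 2.29 ± 0.25 SE, adjusted p = 2.08e-05) and Tnfrsf10b (log2 2.18 ± 0.35 SE, adjusted p = 0.000602), with the early-response gene Btg2 falling (log2 -1.21 ± 0.39 SE, adjusted p = 0.0477), a call lost in 14 of 16 fits that left out 1 library. In WT 4 rose and 2 fell with the diet, led by Gadd45a, a rise of log2 1.56 ± 0.27 SE, adjusted p = 0.00122, and Gdf15, a fall of log2 -1.5 ± 0.41 SE, adjusted p = 0.0214. Btg2 rose and Trp53inp1 fell there too, and the 4 rises became 2 with HFD library 4 left out, 2 with chow library 7 left out and 1 with chow library 5 or 6 left out. On chow 2 were higher in HuMgat2, Btg2 (log2 1.95 ± 0.4 SE, adjusted p = 0.0366) and Gadd45a (log2 1.3 ± 0.27 SE, adjusted p = 0.037). Neither passed with only the groups compared or when 1 of 6 libraries was left out (5, 6 or 7 of WT on chow, 13 or 16 of HuMgat2 on chow, 11 of HuMgat2 on HFD), and 0.266% of all tested genes were higher on chow. The interaction passed with a smaller diet change in HuMgat2 for Btg2 and Gadd45a and a larger one for 3, led by Eda2r and Sesn2. This list was chosen with the Cdkn1a result known, so it is no independent evidence of that result.

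Of 17 tested genes of growth signalling, HFD raised 3 and lowered 4 in HuMgat2 and lowered 2 in WT, beside the same background as for the G1 regulators. Egfr, the receptor of epidermal growth factor and an abundant hepatocyte transcript, fell with the diet in HuMgat2. It was at 718 ± 338 CPM in WT on chow, 1325 ± 648 in WT on HFD, 1217 ± 344 in HuMgat2 on chow and 188 ± 57.5 in HuMgat2 on HFD (SD, n = 4; log2 -2.7 ± 0.39 SE, adjusted p = 0.000206). The others among the 4 largest in HuMgat2 were the ligand gene Ereg (log2 1.69 ± 0.54 SE, adjusted p = 0.0445), Ccn1, a target of the Hippo pathway (log2 -1.5 ± 0.28 SE, adjusted p = 0.00199), and the Wnt enhancer Rspo3 (log2 0.77 ± 0.15 SE, adjusted p = 0.00238). In WT Ccn1 (log2 -1.52 ± 0.29 SE, adjusted p = 0.00291) and Tgfa (log2 -0.6 ± 0.14 SE, adjusted p = 0.00889) fell. The call of Ereg was lost in 12 of 16 fits that left out 1 library, and 1 gene rose in HuMgat2 without chow library 15 or HFD library 12. On HFD Rspo3 was higher in HuMgat2 than in WT, and Egfr, the receptor gene Met and Erbb3 were lower (log2 -2.82 ± 0.39 SE, adjusted p = 0.000175 for Egfr). The interaction passed with a negative term for Egfr, Fgf1 and Erbb3, and the call of Fgf1 was lost in 9 of the 16 fits.

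**Figure D5:**
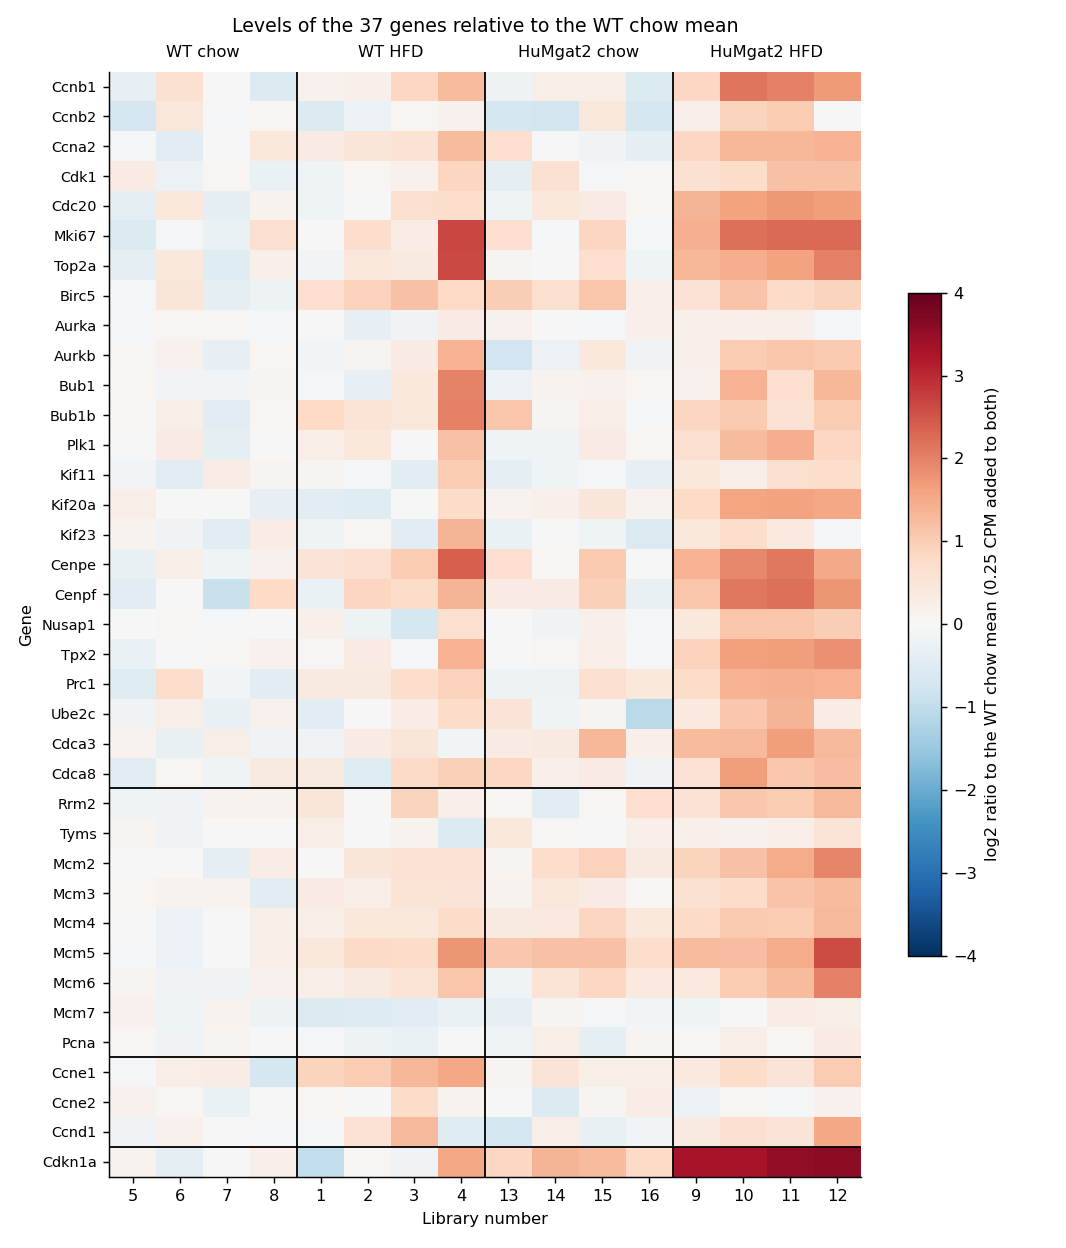
Log2 ratio of each library to the WT chow mean for the 37 genes, with 0.25 CPM added to both; rows are genes by role, columns are the 16 libraries by group, and red is above the WT chow mean. The HuMgat2 HFD columns are red over most mitosis rows and Cdkn1a, and library 4 is the reddest WT HFD column for Mki67, Top2a and Cenpe, while Pcna, Tyms and Aurka stay pale in all columns.

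Over all 4 simple comparisons and the interaction, 25 of the 37 genes were called at least once and 12 never: Ccnb2, Aurka, Aurkb, Bub1, Kif11, Kif23, Ube2c, Cdca8, Tyms, Mcm6, Pcna and Ccne2. Of these 12, the mitosis genes Aurkb and Kif11 and the helicase gene Mcm6 rose with the diet in HuMgat2 once WT HFD library 4 was left out. Reads that overlap a gene on the other strand could not be assigned by strand, which concerns Kif20a with Cdc23 (29.9% of its exon bases), Ube2c with Tnnc2 (22.8%), Ccne2 with Ints8 (17.4%), Ccnd1 with LTO1 (17.4%), Prc1 with Rccd1 (11.7%), Ccna2 with Exosc9 (9.26%) and Cdkn1a with 1700023B13Rik (7.68%).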

How the data were processed

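Read counts per gene were analysed for 16 liver libraries, 4 in each of 4 groups; the labels hold 64 records, 4 for each library, and each library was used once. The authors deposited raw counts per gene name, made with featureCounts 2.0.1 without a strand option on Ensembl 103 (GRCm39), per the file headers; STAR 2.7 and DESeq2 1.26.0 are named in the submitters' processing notes. The library kit keeps strand. Each group was told by its label. From the counts, edgeR 4.0.16 (R 4.3.3) fitted all 4 groups together with TMM scaling, filterByExpr, a quasi-likelihood test and Benjamini-Hochberg adjustment over 17318 genes, with a threshold of 0.05. The biological coefficient of variation was 0.197. The script was tested on simulated data. Alternatives were DESeq2 1.42.0, its size factors, testing every gene with a count, a minimum mean level of 1 CPM, separate fits of each pair of groups, removal of mitochondrial, ribosomal RNA and hemoglobin genes, limma 3.58.1 voom with quality weights, and each library left out. The members and gene lists were chosen with earlier results of these data known. All members are accounted for: those called at least once are given by library, and of each other list up to 4 called genes per comparison, those with the largest log2 change, are named, with Foxm1 and Mdm2 named besides. Of the gene names, 78 merge several gene identifiers. Promoters are from RefSeq (GRCm38.p6).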

Additional observations from a re-analysis of the deposited data

Results flagged for a closer look

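In each group of 4 libraries, a member's highest or lowest library was set against the others by Dixon's gap test, in 148 tests over the 37 genes. It singled out 21 values, where chance gives about 1 in 20. WT HFD library 4 stood above its group in Mki67 at 18.6 CPM (others 2.64 to 4.55), Top2a at 9.37 CPM (others 1.17 to 1.84), Bub1b at 2.38 CPM (others 0.648 to 0.879), Kif23 at 2.3 CPM (others 0.486 to 0.793), Cenpe at 2.3 CPM (others 0.44 to 0.729) and Mcm5 at 3.73 CPM (others 1.37 to 1.75). HuMgat2 HFD library 9 stood below its group in Ccna2 at 1.59 CPM (others 2.38 to 2.46), Mki67 at 7.65 CPM (others 13.2 to 13.9), Aurkb at 0.244 CPM (others 0.62 to 0.68), Kif20a at 1.26 CPM (others 2.29 to 2.42) and Prc1 at 1.1 CPM (others 1.86 to 1.91). HuMgat2 HFD library 12 was below its group in Aurka at 1.79 CPM (others 2.2 to 2.21). It stood above its group in Tyms at 6.32 CPM (others 4.82 to 5.06), Mcm5 at 7.04 CPM (others 2.52 to 3.06) and Ccnd1 at 44.7 CPM (others 19.6 to 23.8). HuMgat2 chow library 15 stood above its group in Ccnb2 at 1.02 CPM (others 0.304 to 0.328), Cdca3 at 1.93 CPM (others 0.749 to 0.873) and Mcm4 at 6.02 CPM (others 4.2 to 4.31). HuMgat2 HFD library 11 was above its group in Cdca3 at 2.55 CPM (others 1.87 to 1.9). WT chow library 8 was below its group in Mcm3 at 1.98 CPM (others 2.88 to 3.05). WT HFD library 3 was above its group in Ccne2 at 3.48 CPM (others 2 to 2.22). The diet change of Cdkn1a differed between the genotypes by 2.07 on the log2 scale in the edgeR interaction test (adjusted p = 0.0385).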

How the results depend on the processing

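Of 861 recomputed log2 changes of called members, 707 kept their call, 154 lost it and 0 changed direction. All 228 recomputed medians of the mitosis and replication members moved by less than the spread between replicates. The mitosis median for the diet in WT was 0.71, and 0.34 without WT HFD library 4. Other lists are not in that count, and some of their medians changed sign without that library. For HuMgat2 against WT on HFD the median went from -0.58 to 0.11 for macrophage markers and from -0.23 to 0.25 for histone genes. The number of genes raised by diet in WT was 5, and it was 1 with a mean of at least 1 CPM, 2 with only the groups compared, and 1 to 8 when single libraries were left out (1 without WT chow library 7, 2 without WT chow library 5 or WT HFD library 4, 3 without WT chow library 8, 8 without WT HFD library 1). The number lowered was 1, and it was 0 with only the groups compared and 0 to 1 when single libraries were left out. The number raised by diet in HuMgat2 was 20, and 11 to 23 when single libraries were left out. On chow the number higher in HuMgat2 was 0, and it was 2 with only the groups compared, 1 by voom, and 0 to 1 when single libraries were left out. On HFD the number higher in HuMgat2 was 11, and it was 7 with only the groups compared, 23 by voom, and 7 to 21 when single libraries were left out, while the number lower was 0, and 1 by voom. For the interaction the number was 1, and it was 2 by DESeq2, 2 with DESeq2 size factors, 4 by voom, and 0 to 5 when single libraries were left out. The causes of these shifts were not tested. The interaction was not run on only the groups compared, since it needs all 4. No paired analysis was possible because each library number occurs in 1 group. Members had a median of 26 counts per library, and Bub1 had too few to be tested. How the smallest detectable change depends on depth was not tested.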
